A study of Homo sapiens with 6 samples.

Results

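Ribosome biogenesis and nucleolar genes were followed in MDA-MB-231 cells, an established triple-negative human breast cancer line, with and without knockout of the PEA3-type ETS transcription factors ETV1, ETV4 and ETV5. The set held 41 named genes of the 61228 in the deposited count table, taken by gene symbol from a list of names that was drawn up with earlier results of these data known, so their common direction is not independent evidence. All 41 were found in the table and all 41 passed the filter on low counts, which left 14704 genes to test. Both groups were nucleofected with Cas9, given control guides in the control group (n = 3) and guides against the named factors in the knockout group (KO, n = 3). All cells were then cultured in 3D gels of collagen I seeded at 100000 cells per ml in a collagen concentration of 1.2 mg/ml or of 2.4 mg/ml, and which of them a sample had is not given in the sources used here. For all samples the labels also list a digest with collagenase at 300 U/ml, of 10 minutes with 5 extra minutes. The sample titles name ETV4 alone, whereas the treatment label names all 3 factors. The meaning of c39 in the KO library names is not given, and neither is whether the KO cells are 1 clone. Nor is it given whether replicates were separate cultures, and p-values then rest on a spread between samples that could be technical alone.

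Ribosomes are built in the nucleolus. RNA polymerase I transcribes the large ribosomal RNA precursor there, small nucleolar RNA-protein particles (snoRNPs) modify and help to fold it, and large sets of assembly factors cut it and join it to ribosomal proteins to form the small and the large subunit. The transcription factor MYC is a known activator of these genes, and enlarged nucleoli are a long-known feature of fast-growing cancer cells. ETS factors of the PEA3 group act downstream of receptor and ERK signalling.

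Libraries held 18042601 to 23232770 counts. Values are given as CPM, counts scaled to a common library size of tested genes with TMM factors. A gene with no count could have had up to 3, worth 0.128 to 0.165 CPM, a limit that covers counting error only. ETV1 measured 218, 213 and 238 CPM in control and 135, 137 and 155 CPM in KO, ETV4 95.3, 94.9 and 91.4 CPM in control and 65.5, 61.5 and 64.0 CPM in KO and ETV5 117, 108 and 112 CPM in control and 114, 113 and 112 CPM in KO. ETV1 (log2 fold change -0.65, SE 0.08) and ETV4 (-0.56, SE 0.06) fell and ETV5 (0.01, SE 0.06) did not pass the test. Small insertions or deletions need not change an mRNA count, so this does not measure how far each gene was disrupted. Replicate 3 of both groups stood apart from replicates 1 and 2 along a principal component with 39.4% of the variance, while the component that separated the groups held 49.3%. The labels name no batch. Mitochondrially encoded transcripts took 3.15% to 4.26% of control and 2.65% to 3.82% of KO counts. Of the markers of the line, VIM, CD44, EGFR, AXL, CAV1 and MSN summed to 9098 to 11256 CPM in control and 7962 to 9554 CPM in KO, and none of the 6 passed the test. The 6 markers that the line is known for lacking or holding low summed to 85.6 to 96.4 CPM in control and 85.1 to 91.8 CPM in KO. Of these, ESR1, PGR and CDH1 had at most 5 counts in any library, while ERBB2 (61.2 CPM in control and 55.7 CPM in KO on average), EPCAM (19.7 and 21.1 CPM) and GATA3 (9.42 and 12.1 CPM) were detected and did not pass the test. The 8 fibroblast markers summed to 14.7 to 15.4 CPM in control and 13.6 to 15.6 CPM in KO, mostly COL1A1 (9.46 and 10.1 CPM). The 8 blood markers (6.85 to 8.08 against 2.75 to 3.03 CPM) and the 6 endothelial markers (9.73 to 11.1 against 5.89 to 8.46 CPM) were lower in KO. Most of these sums came from LYZ (6.03 CPM in control and 1.55 CPM in KO) and PECAM1 (6.76 and 3.74 CPM), which fell, and from KDR (3.68 and 3.27 CPM), which did not pass. In no library was there a count for 2 of the blood markers, CD3E among them, or for 2 of the endothelial markers, CDH5 and CLDN5. The part of these shifts in the results was not tested.

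The ribosome biogenesis genes were slightly and broadly higher in the KO cells, while no difference was detected for MYC. Of the 41 genes, 39 had a positive log2 fold change and 2, MYC and NOP2, a negative one, against 50.7% positive among all genes tested. The median log2 fold change was 0.22, a 16.5% higher level, against 0.00 over all genes. No member changed as much as 2-fold, the range being -0.41 to 0.49. By edgeR's quasi-likelihood test, at an adjusted p under 0.05, 14 of 41 rose, against a background of 3.28% of genes called higher and 9.7% called in either direction. None fell by edgeR or DESeq2, and none with a negative fold change had an unadjusted p under 0.05. These 14 were 16.1% to 40.1% higher in KO.

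The KO and control values did not overlap for 29 members. KO was higher in 28 of them, against a background of 14.9% of genes, and lower in 1, NOP2, against 16.8%. Counts assigned to the 41 genes made up 0.836%, 0.825% and 0.879% of the total in control replicates 1, 2 and 3, and 0.946%, 0.979% and 1.03% in KO replicates 1, 2 and 3. Every KO library thus gave these genes a larger share than every control library. In bulk RNA, more cells of a kind and more RNA per cell cannot be told apart.

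**Figure D1:**
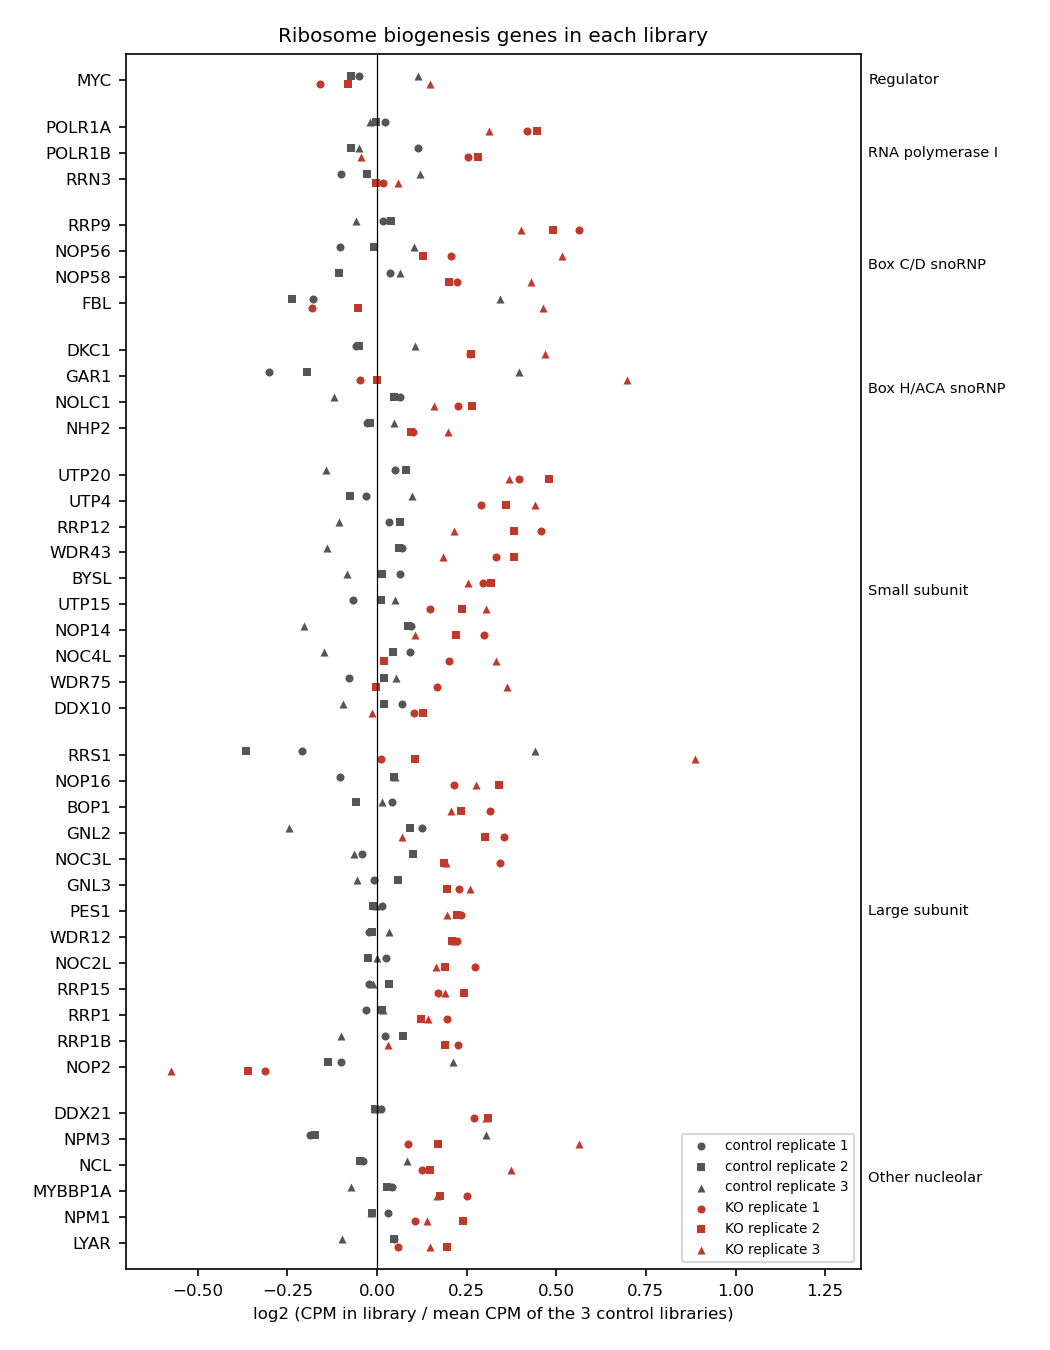
Level of each of the 41 genes in each library, as the log2 ratio of its CPM to the mean CPM of the 3 control libraries (x axis), with genes in rows grouped by role; grey symbols are control and red symbols KO libraries, and the symbol shape gives the replicate. For most genes the red symbols lie to the right of the grey ones. Red and grey overlap for MYC, RRN3, NOC4L, WDR75, RRP1B, GNL2, POLR1B and DDX10. They also overlap for FBL, GAR1, RRS1 and NPM3, which are spread out by replicate 3 of each group. For NOP2 the red symbols lie to the left.

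Both groups carry the replicate numbers 1, 2 and 3. Deviations from group means correlated at 0.829 between control and KO replicate 3. Replicates 1 and 2 correlated slightly better crossed (0.592 and 0.584) than by number (0.546 and 0.450), so the data do not show that they pair by number. With the replicate number as a block, 36 of the 41 genes rose (background 17.2% of genes), none fell, and MYC, RRN3, DDX10, NOC4L and NOP2 did not pass. The median log2 fold change was 0.22 in both fits, while the SE of RRS1, for example, went from 0.32 to 0.06. Within the same-numbered pairs, KO was higher for 38, 37 and 39 of the 41 genes in pairs 1, 2 and 3, with median log2 differences of 0.22, 0.22 and 0.26. KO was higher in all 3 pairs for 35 genes, against a background of 29.4%. The number of calls without the block depended on single libraries: 3 members passed when control replicate 1 was left out, 3 when it was control replicate 2, 8 for control replicate 3, 4 for KO replicate 1, 3 for KO replicate 2 and 18 for KO replicate 3. The shares of all genes called higher in these fits were, in the same order, 0.923%, 0.903%, 2.32%, 1.21%, 1.16% and 5.17%. RRP9, POLR1A and UTP20 passed in all 6 of these fits, and WDR12 in none of them. UTP4 passed in 3 (all but those that left out control replicates 1 and 2 and KO replicate 2), DKC1, NOP16, BYSL and DDX21 only without replicate 3 of either group, and BOP1, PES1, RRP12, WDR43 and GNL3 only without KO replicate 3. Without replicate 3 of both groups, 31 rose, while the background was 11.7%.

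**Figure D2:**
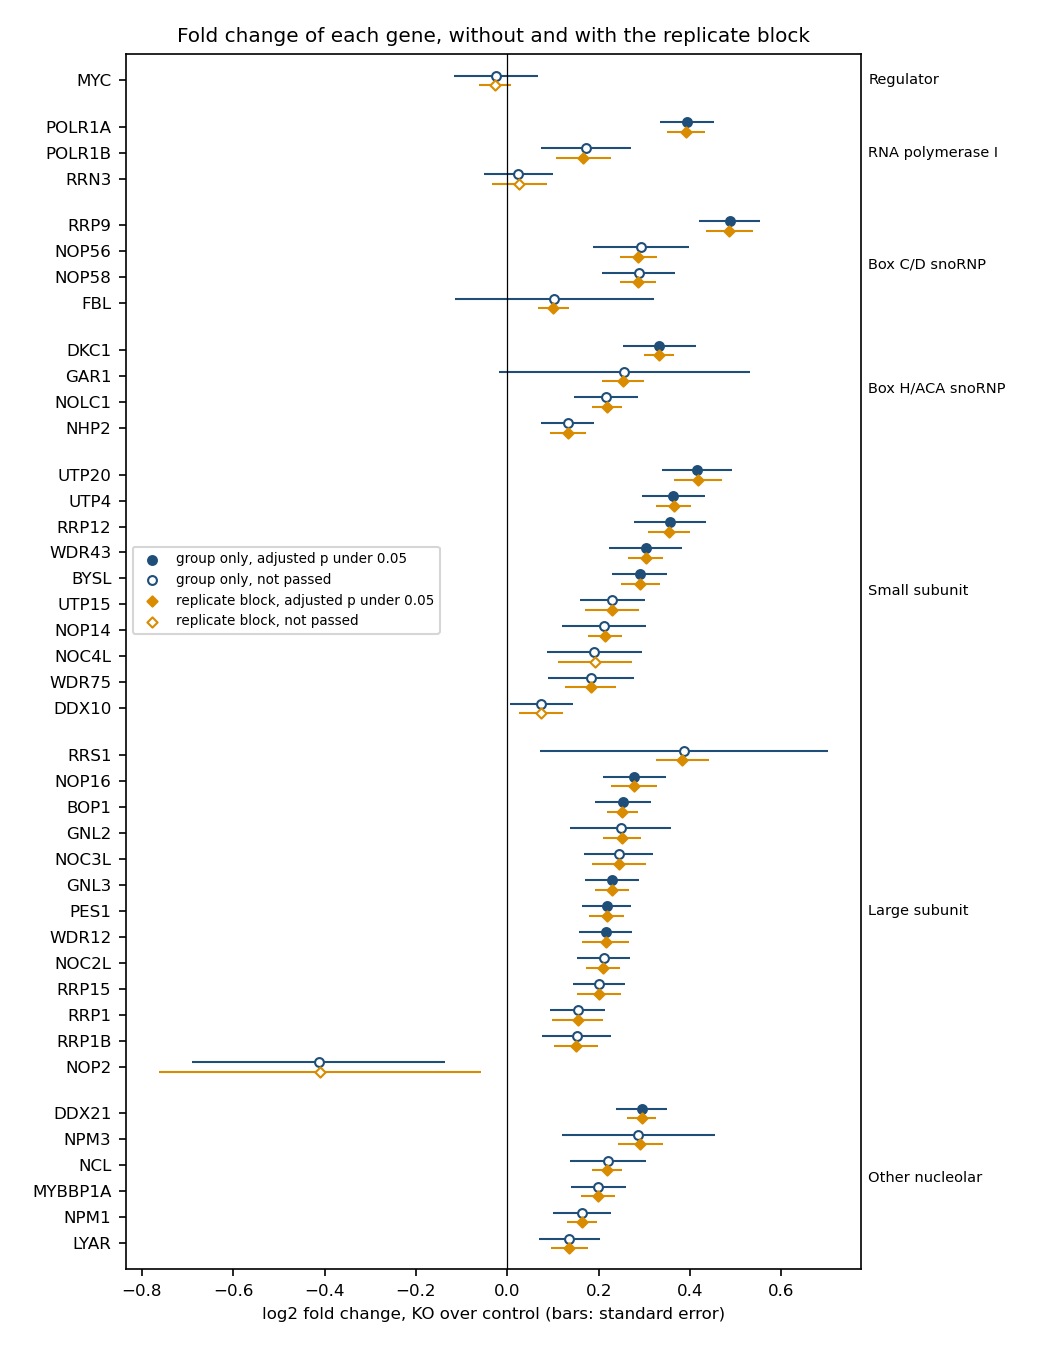
Log2 fold change of KO over control for each of the 41 genes, with bars of 1 standard error, fitted with group alone (blue circles) or with a replicate block (orange diamonds); filled symbols have an adjusted p under 0.05. Nearly all points lie between 0 and 0.5, with 14 filled circles and 36 filled diamonds, and bars of FBL, GAR1, RRS1 and NPM3 are the ones that shrink most with the block.

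Start regions were examined because so many members moved together. RefSeq promoters (GRCh38.p14, 250 bases before to 50 after the start) matched 34 of the 41 genes; NOP58, BOP1, RRP1B, RRP12, NOLC1, RRS1 and MYC had no entry. The E-box CACGTG, a palindrome to which MYC and related factors bind, was present in 12 of 34 (35.3%), against 9.95% of the 10757 promoters of tested genes and 7.43% of all 27305 promoters. All 12 matches lay within 50 bases of the start. The ETS core CCGGAAG or its reverse complement CTTCCGG was present in 11 of 34 (32.4%), against 19.5% and 10.7%, and TCGCGAG, part of a palindrome found in housekeeping promoters, on either strand in 4 (11.8%), against 4.42% and 2.35%. These matches are letters in a window, not measured binding. The median log2 fold change was 0.25 for the 12 genes with the E-box and 0.21 for the 22 without it, and 6 in each class rose. For the ETS core it was 0.24 for 11 genes with it, of which 4 rose, and 0.22 for 23 without it, of which 8 rose. The 3 promoters with an E-box whose genes had the smallest adjusted p are shown, RRP9 (chr3:51941855-51942154, minus strand), UTP20 (chr12:101279855-101280154, plus strand) and UTP4 (chr16:69132399-69132698, plus strand), 5′ to 3′, with E-box and ETS core in capitals.
RRP9: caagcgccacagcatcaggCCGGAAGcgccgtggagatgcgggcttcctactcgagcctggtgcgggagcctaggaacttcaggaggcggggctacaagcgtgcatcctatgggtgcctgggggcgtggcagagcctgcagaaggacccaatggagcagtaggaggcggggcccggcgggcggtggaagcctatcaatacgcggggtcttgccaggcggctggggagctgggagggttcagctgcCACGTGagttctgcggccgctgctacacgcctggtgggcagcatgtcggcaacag
UTP20: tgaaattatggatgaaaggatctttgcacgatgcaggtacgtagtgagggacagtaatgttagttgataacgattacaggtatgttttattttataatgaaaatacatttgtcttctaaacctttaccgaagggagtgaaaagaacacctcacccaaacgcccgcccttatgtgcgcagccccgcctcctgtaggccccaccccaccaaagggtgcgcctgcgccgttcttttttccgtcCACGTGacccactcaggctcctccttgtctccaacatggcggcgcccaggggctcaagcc
UTP4: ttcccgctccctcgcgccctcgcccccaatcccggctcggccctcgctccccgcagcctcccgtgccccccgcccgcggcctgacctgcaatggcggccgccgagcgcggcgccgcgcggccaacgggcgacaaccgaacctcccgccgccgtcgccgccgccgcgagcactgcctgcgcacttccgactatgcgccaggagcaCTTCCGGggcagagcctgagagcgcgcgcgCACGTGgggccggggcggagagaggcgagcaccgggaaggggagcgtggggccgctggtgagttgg
In each of them the E-box starts at most 16 bases before the annotated start, at -5, -10 and -16. RRP9 and UTP4 also hold an ETS core, as do FBL and NOC3L, and UTP20 does not. POLR1A (edgeR adjusted p = 0.00411) and DDX21 (edgeR adjusted p = 0.0127) ranked ahead of UTP4 (edgeR adjusted p = 0.0136) without an E-box in this window. DDX21 holds an ETS core there and POLR1A does not.

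MYC, the regulator in the set, did not pass the test in either fit. It measured 231, 227 and 259 CPM in control replicates 1, 2 and 3 and 214, 226 and 265 CPM in KO replicates 1, 2 and 3. The groups overlapped throughout, and replicate 3 was the highest library in both. The log2 fold change was -0.02 (SE 0.09, 95% interval -0.23 to 0.18, edgeR adjusted p = 0.907), and with the replicate block -0.03 (SE 0.04). Leaving out 1 library at a time turned the sign positive in 3 of 6 fits. Partners and antagonists of MYC moved in both directions: of 14 tested genes of this network, 2 rose and 2 fell (background 3.28% higher and 6.42% lower), with a median of -0.08. MXI1, which encodes a repressor that competes with MYC for their shared partner MAX, fell from 38.1 ± 3.61 to 16.8 ± 1.51 CPM (SD, n = 3; edgeR adjusted p = 2.87e-04, log2 fold change -1.18, SE 0.10). MXD4, of the same repressor family, had a log2 fold change of -0.26 (SE 0.06), whereas MXD1 (0.45, SE 0.08) and the MAX-binding gene MGA (0.34, SE 0.09) rose. MAX itself did not pass (0.14, SE 0.12, edgeR adjusted p = 0.522), but did with the replicate block. In that fit 4 genes of the network rose and 3 fell (backgrounds 17.2% and 16.7% of all genes). Without control replicate 1 or 2 no gene of the network rose (backgrounds 0.923% and 0.903%). In each of the 6 fits with 1 library left out only 1 gene of the network fell, while 436 to 964 of all genes did.

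Of the 3 members that serve RNA polymerase I, 1 rose (background 3.28% of genes). POLR1A (ENSG00000068654, GRCh38 chromosome 2, 86020216 to 86106155, minus strand), the largest subunit, which forms the active site with POLR1B, measured 97.7, 96.1 and 94.8 CPM in control replicates 1, 2 and 3 and 129, 131 and 119 CPM in KO replicates 1, 2 and 3. All KO values were above all control values (edgeR adjusted p = 0.00411, log2 fold change 0.39, SE 0.06). POLR1B, the other large catalytic subunit, measured 46.6, 40.9 and 41.6 CPM in control replicates 1, 2 and 3 and 51.4, 52.3 and 41.8 CPM in KO replicates 1, 2 and 3, so that KO replicate 3 lay within the control range. It did not pass (edgeR adjusted p = 0.326, log2 fold change 0.17, SE 0.10), but did with the block (edgeR adjusted p = 0.0270). RRN3, the initiation factor that links growth signals to the polymerase, measured 37.3, 39.2 and 43.4 CPM in control and 40.4, 39.9 and 41.7 CPM in KO and did not pass either fit (log2 fold change 0.02, 95% interval -0.15 to 0.19). Of 20 other genes of the polymerase I machinery, edgeR called none, and DESeq2 called 1. An unadjusted p under 0.05 was found for 6 of them, near the background of 25.4% of all genes tested. The smallest adjusted p was that of the subunit gene POLR1G (edgeR adjusted p = 0.0585, log2 fold change 0.47, SE 0.13). With the block 9 of the 20 rose and 2 fell (backgrounds 17.2% and 16.7%), and their median was 0.09. That list includes subunits shared with other polymerases and CAVIN1, better known as a caveolar protein.

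Among genes of box C/D snoRNPs, the particles that direct 2′-O-methylation and some cleavages of ribosomal RNA, RRP9 had the largest increase of the whole set. RRP9 (ENSG00000114767, chromosome 3, 51933430 to 51941941, minus strand), a protein of the U3 particle needed for early cleavage, measured 49.2, 50.04 and 46.8 CPM in control and 71.9, 68.4 and 64.2 CPM in KO. All KO values lay above all control values (edgeR adjusted p = 0.00298, log2 fold change 0.49, SE 0.07). The scaffold pair NOP56 and NOP58 was also higher in every KO library. NOP56 measured 258, 275 and 297 CPM in control and 319, 302 and 396 CPM in KO, with KO replicate 3 highest (edgeR adjusted p = 0.121, log2 fold change 0.29, SE 0.11; edgeR adjusted p = 7.92e-06 with the block). NOP58 measured 135, 122 and 138 CPM in control and 154, 152 and 178 CPM in KO (edgeR adjusted p = 0.0564, log2 fold change 0.29, SE 0.08; edgeR adjusted p = 4.82e-08 with the block). FBL, the methyltransferase fibrillarin, showed the replicate pattern more than the group: 390.1, 375 and 561 CPM in control and 389.7, 426 and 609 CPM in KO. Its groups overlapped, replicate 3 was the highest library in each, and it passed with the block (log2 fold change 0.10, SE 0.03, edgeR adjusted p = 0.0174) but not without it (edgeR adjusted p = 0.825). The fold change of FBL was negative without control replicate 2 or KO replicate 3.

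Box H/ACA particles direct the conversion of uridine to pseudouridine, and DKC1 encodes dyskerin, their catalytic subunit. DKC1 measured 227, 228 and 254 CPM in control and 283, 283 and 327 CPM in KO, the lowest KO value being above the highest control value (edgeR adjusted p = 0.0340, log2 fold change 0.33, SE 0.08). Its partners NHP2 and GAR1 did not pass without the block. NHP2 measured 122, 123 and 129 CPM in control and 134, 133 and 143 CPM in KO, a small shift without overlap (edgeR adjusted p = 0.197, log2 fold change 0.13, SE 0.06; edgeR adjusted p = 0.00604 with the block). GAR1 ranged widely with the replicate number, at 63.2, 68.1 and 103 CPM in control and 75.4, 78.0 and 126 CPM in KO. Within each numbered pair KO was higher, and the block gave 0.25 for it on the log2 scale (SE 0.05, edgeR adjusted p = 1.09e-05), against an SE of 0.27 without it. NOLC1, a nucleolar chaperone of snoRNPs, measured 372, 368 and 328 CPM in control and 416, 428 and 398 CPM in KO (edgeR adjusted p = 0.0905, log2 fold change 0.22, SE 0.07; edgeR adjusted p = 3.69e-07 with the block). Of NHP2's exonic bases 27.4% are overlapped by RMND5B on the opposite strand in GENCODE release 29. The library kit keeps strand, but whether counting used it is not given in the sources used here. Among 25 genes of snoRNP assembly or hosts of small nucleolar RNAs, edgeR and DESeq2 called none. Only 1 had an unadjusted p under 0.05, against 25.4% of all genes tested. RPAP3 came closest (edgeR adjusted p = 0.0628, log2 fold change 0.26, SE 0.08), and with the block 10 rose and 1 fell (backgrounds 17.2% and 16.7%).

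Of the 10 small-subunit assembly genes, 5 rose (background 3.28% of genes), namely UTP20, UTP4, BYSL, RRP12 and WDR43. All 10 had positive fold changes, with a median of 0.26, and with the block UTP15, NOP14 and WDR75 rose as well (background 17.2%). UTP15, WDR75, WDR43 and UTP4 belong to the same early-binding subcomplex. UTP20 (ENSG00000120800, chromosome 12, 101280109 to 101386616, plus strand), a very large protein of the small-subunit processome, measured 49.6, 50.7 and 43.4 CPM in control and 63.1, 66.8 and 61.8 CPM in KO, a gap between the groups in every replicate (edgeR adjusted p = 0.0115, log2 fold change 0.42, SE 0.08). UTP4 measured 143, 138 and 156 CPM in control and 178, 187 and 198 CPM in KO (edgeR adjusted p = 0.0136, log2 fold change 0.36, SE 0.07). The groups did not overlap. BYSL, which acts in late maturation of the small subunit, measured 93.5, 90.3 and 84.4 CPM in control and 109.8, 112 and 107 CPM in KO (edgeR adjusted p = 0.0189, log2 fold change 0.29, SE 0.06). RRP12, an export factor, measured 74.8, 76.3 and 67.8 CPM in control and 100.3, 95.1 and 84.7 CPM in KO (edgeR adjusted p = 0.0247, log2 fold change 0.36, SE 0.08). WDR43 measured 134, 133 and 116 CPM in control and 161, 166 and 145 CPM in KO (edgeR adjusted p = 0.0462, log2 fold change 0.30, SE 0.08), and here replicate 3 was the lowest library of each group. UTP15 (edgeR adjusted p = 0.00167 with the block), NOP14 (edgeR adjusted p = 7.06e-06) and WDR75 (edgeR adjusted p = 0.00942) had log2 fold changes of 0.23, 0.21 and 0.18 in the fit without it. NOC4L and the helicase gene DDX10 did not pass either fit, with log2 fold changes of 0.19 (SE 0.10) and 0.07 (SE 0.07). NOP14 shares 17.1% of its exonic bases with the antisense gene NOP14-AS1, whose row held 404 to 583 counts a library against 3353 to 3937 for NOP14.

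Of 50 other factors of the small subunit, 9 rose (background 3.28% of genes) and none fell by edgeR or DESeq2. None with a negative fold change had an unadjusted p under 0.05, and 48 had a positive fold change, with a median of 0.18. NOL6 rose from 101 ± 0.576 to 127 ± 6.34 CPM (SD, n = 3; edgeR adjusted p = 0.00878, log2 fold change 0.34, SE 0.06), PNO1 from 52.3 ± 2.35 to 66.8 ± 2.06 CPM (edgeR adjusted p = 0.0104, log2 fold change 0.35, SE 0.06) and IMP4 from 46.9 ± 2.18 to 60.1 ± 2.40 CPM (edgeR adjusted p = 0.0124, log2 fold change 0.36, SE 0.07). NOL6 and IMP4 belong to the processome and PNO1 stays with the subunit until its last steps. With the block 35 of the 50 rose (background 17.2%). Between 1 and 4 did when replicate 1 or 2 of either group was left out.

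Large-subunit genes formed the most numerous class of the set, with 13 members. BOP1, PES1 and WDR12, which together form the PeBoW complex needed to process the precursor of the large subunit, all rose, though none of the 3 under every setting. With 1 library left out at a time, BOP1 and PES1 each passed in 1 of 6 fits and WDR12 in none. BOP1 measured 223, 208 and 219 CPM in control and 269.6, 255 and 250.1 CPM in KO (edgeR adjusted p = 0.0347, log2 fold change 0.25, SE 0.06). PES1 measured 138, 136 and 136 CPM in control and 161, 159.6 and 156 CPM in KO (edgeR adjusted p = 0.0347, log2 fold change 0.22, SE 0.05). WDR12 measured 51.9, 52.3 and 54.0 CPM in control and 61.5, 61.0 and 61.2 CPM in KO (edgeR adjusted p = 0.0492, log2 fold change 0.22, SE 0.06). All 3 genes were higher in every KO library than in any control library. WDR12 did not pass with DESeq2 (adjusted p = 0.0582), nor in edgeR with upper-quartile factors (adjusted p = 0.0641) or without the low-count filter (adjusted p = 0.113), and PES1 did not without that filter (edgeR adjusted p = 0.0820). NOP16 (51.9, 57.7 and 57.8 CPM in control and 64.7, 70.7 and 67.5 CPM in KO; edgeR adjusted p = 0.0381, log2 fold change 0.28, SE 0.07) and the stem cell-associated GTPase gene GNL3, nucleostemin (183, 192 and 177 CPM in control and 216, 211 and 221 CPM in KO; edgeR adjusted p = 0.0435, log2 fold change 0.23, SE 0.06), rose as well, GNL3 not without the low-count filter (edgeR adjusted p = 0.0587). Of NOP16's exonic bases 20% are overlapped by genes on the opposite strand.

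With the block, 7 further large-subunit genes rose (background 17.2% of genes), namely NOC2L, NOC3L, RRP15, RRP1, RRP1B, GNL2 and RRS1. Their log2 fold changes without the block ran from 0.15 for RRP1B to 0.39 for RRS1. The partner proteins NOC2L and NOC3L had 0.21 (edgeR adjusted p = 1.02e-05 with the block) and 0.24 (edgeR adjusted p = 8.80e-04). RRP15 had 0.20 (edgeR adjusted p = 7.14e-04 with the block), and the paralogs RRP1 and RRP1B each 0.15 (edgeR adjusted p = 0.0260 and edgeR adjusted p = 0.0108 with the block). GNL2, a GTPase that accompanies the precursor to the nuclear pore, measured 116, 114 and 89.8 CPM in control and 136, 131 and 112 CPM in KO. Its replicate 3 was the lowest library in each group, so that KO replicate 3 lay below 2 of the controls (edgeR adjusted p = 0.202; edgeR adjusted p = 1.70e-06 with the block). RRS1, which helps to bring the 5S particle into the subunit, measured 35.3, 31.6 and 55.4 CPM in control and 41.1, 43.9 and 75.4 CPM in KO. Here replicate 3 was the highest library in each group, KO was higher in every numbered pair, and the adjusted p went from 0.515 to 5.07e-07 in edgeR with the block. NOP2, a methyltransferase of large-subunit ribosomal RNA, had 18 to 29 counts in the control and 13 to 16 in the KO libraries, or 0.992, 0.970 and 1.23 CPM in control and 0.857, 0.831 and 0.716 CPM in KO. It did not pass (log2 fold change -0.41, SE 0.28, edgeR adjusted p = 0.402). In GENCODE release 29, 54.4% of the exonic bases of NOP2 are also exons of ENSG00000285238 on the same strand (GRCh38 chromosome 12), whose row held 0 to 6 counts. How reads shared by such genes were counted is not given in the sources used here, and its part in the low count was not tested.

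Among 50 other large-subunit factors, 10 rose (background 3.28% of genes) and none fell by edgeR or DESeq2. None with a negative fold change had an unadjusted p under 0.05, and the median was 0.20. The helicase gene DDX18 rose from 109 ± 1.85 to 136 ± 3.87 CPM (edgeR adjusted p = 0.00801, log2 fold change 0.32, SE 0.05), NIP7 from 103 ± 2.71 to 128 ± 1.91 CPM (edgeR adjusted p = 0.00820, log2 fold change 0.32, SE 0.05) and PUM3 from 99.3 ± 2.81 to 122 ± 4.06 CPM (edgeR adjusted p = 0.0127, log2 fold change 0.30, SE 0.06). With the block 39 rose and 3 fell (backgrounds 17.2% and 16.7%). Without control replicate 1 none rose, without control replicate 2 it was 1, without KO replicate 2 it was 4 and without KO replicate 3 it was 16. The RNA exosome, which trims the ends of ribosomal RNA precursors, had 1 of 14 tested genes higher, EXOSC2 (edgeR adjusted p = 0.0386, log2 fold change 0.28, SE 0.07), and 6 with the block. EXOSC2 passed only in 1 of the 6 fits with a library left out, that without KO replicate 3.

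The remaining members are abundant nucleolar proteins and a few factors with several roles. DDX21, an RNA helicase that links polymerase I transcription and ribosomal RNA processing, measured 433, 428 and 429 CPM in control and 519, 533 and 531 CPM in KO. Its 3 KO values lay close together and above all controls (edgeR adjusted p = 0.0127, log2 fold change 0.29, SE 0.06). NPM1, nucleophosmin, was the member with the most counts and measured 2278, 2210.0 and 2205 CPM in control and 2403, 2634 and 2459.6 CPM in KO (edgeR adjusted p = 0.150, log2 fold change 0.16, SE 0.06; edgeR adjusted p = 8.36e-05 with the block). NCL, nucleolin, measured 1328, 1321 and 1446 CPM in control and 1489, 1514 and 1770.1 CPM in KO (edgeR adjusted p = 0.137, log2 fold change 0.22, SE 0.08; edgeR adjusted p = 3.44e-07 with the block). Neither overlapped between groups. NPM1 has many processed pseudogenes, of which NPM1P27 held 69 to 181 counts a library against 41025 to 51871 for NPM1. NPM3, a relative of NPM1, measured 52.3, 52.8 and 73.5 CPM in control and 63.2, 67.0 and 87.9 CPM in KO, again with replicate 3 high in both groups (edgeR adjusted p = 0.339; edgeR adjusted p = 4.36e-06 with the block). MYBBP1A, a repressor of polymerase I transcription and MYB partner, had a log2 fold change of 0.20 with SE 0.06 (edgeR adjusted p = 0.0764; edgeR adjusted p = 2.28e-05 with the block). LYAR, a zinc finger protein that binds nucleolin, had one of 0.14 with SE 0.07 (edgeR adjusted p = 0.249; edgeR adjusted p = 0.00685 with the block).

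Differences between replicates were, for some members, larger than those between the groups. Replicate 3 exceeded the mean of replicates 1 and 2 by log2 differences of 0.73 in control and 0.83 in KO for RRS1, 0.64 and 0.72 for GAR1, 0.55 and 0.58 for FBL, and 0.48 and 0.43 for NPM3. These 4 genes, 9.76% of the members, were above 0.4 in both groups, against 5.24% of all genes tested. In the other direction, replicate 3 was lower for GNL2 (-0.35 and -0.26), NOP14 (-0.29 and -0.15) and WDR43 (-0.20 and -0.17). Across the 41 genes the replicate difference in control and that in KO had a Pearson correlation of 0.83 and a Spearman correlation of 0.71. This is a description, since the libraries of a number may share their handling. The replicate difference was negatively related to exonic length (Spearman -0.25 in control and -0.42 in KO, n = 41 genes), while that of the fold change between groups with length was 0.04. The part of any batch in this pattern was not tested.

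**Figure D3:**
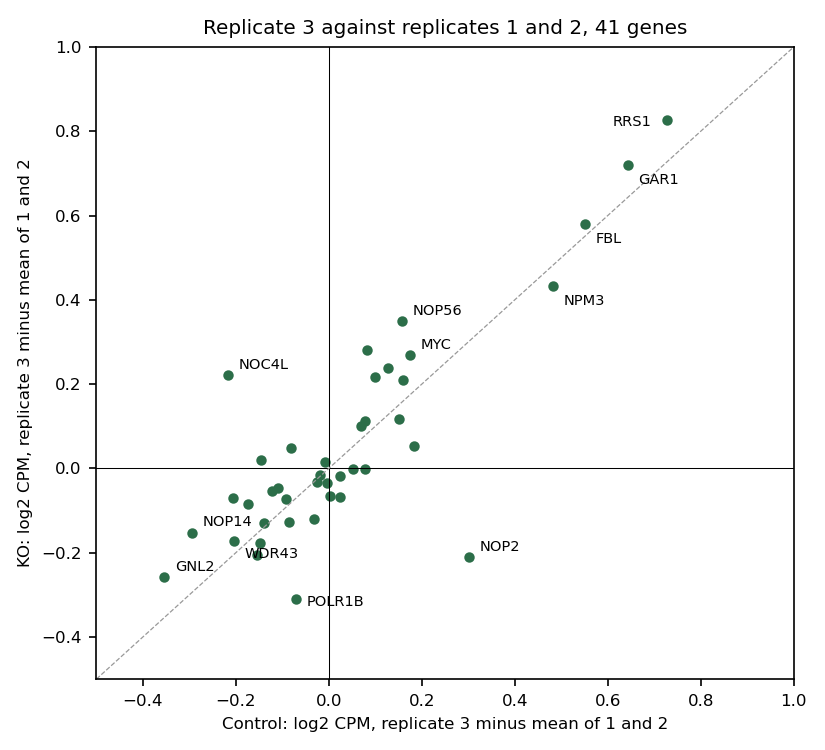
For each of the 41 genes (points), the log2 CPM of replicate 3 minus the mean of replicates 1 and 2 in the control group (x axis) and in the KO group (y axis); the dashed line marks equal differences. RRS1, GAR1, FBL and NPM3 lie far up along the line, and GNL2 and NOP14 at its lower end. Among the genes off the line are NOP2, with at most 29 counts, and NOC4L, with 417 to 498 counts a library.

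Ribosomal proteins are what these factors assemble. Of 80 ribosomal protein genes, 1 rose, RPS26 (134 ± 0.978 to 165 ± 8.06 CPM; edgeR adjusted p = 0.0161, log2 fold change 0.30, SE 0.06), and none fell by edgeR or DESeq2. The background was 3.28% of genes called higher. None with a negative fold change had an unadjusted p under 0.05, and 69 of the 80 fold changes were positive, against 50.7% of all genes tested. Their median log2 fold change was 0.08, against 0.22 for the 41 members, and this difference between lists was not tested. With the block 40 rose and 2 fell (backgrounds 17.2% and 16.7%), and without KO replicate 3, 5 rose. None did when control replicate 1, control replicate 2 or KO replicate 2 was left out. Ribosomal protein genes have many processed pseudogenes, so how reads were divided among copies is uncertain.

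**Figure D4:**
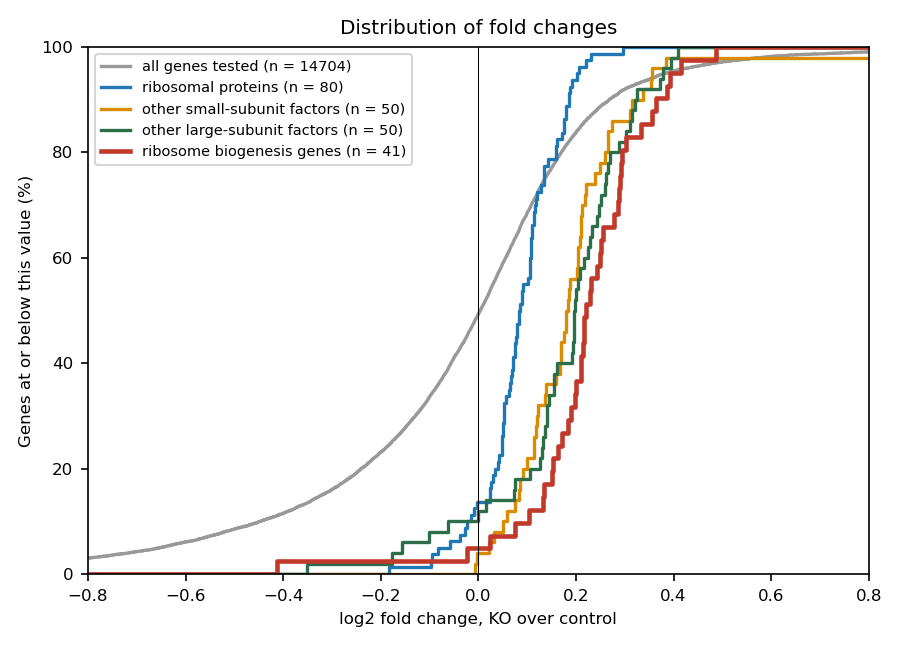
Cumulative share of genes (y axis, in percent) at or below a log2 fold change of KO over control (x axis, shown from -0.8 to 0.8) for all genes tested, ribosomal protein genes, other small-subunit and large-subunit factors, and the 41 ribosome biogenesis genes. The medians, where a curve crosses 50%, lie at 0.00, 0.08, 0.18, 0.20 and 0.22, and 1 small-subunit factor, at 0.96, lies beyond the axis.

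Metabolic and other known targets of MYC outside the nucleolus were partly higher. Of 36 tested, 4 rose (background 3.28% of genes) and none fell by edgeR or DESeq2. A positive fold change was found for 31, against 50.7% of all genes tested, with a median of 0.16. The transferrin receptor gene TFRC rose from 243 ± 5.38 to 319 ± 9.48 CPM (edgeR adjusted p = 0.00383, log2 fold change 0.39, SE 0.06) and ODC1, ornithine decarboxylase of polyamine synthesis, from 215 ± 12.1 to 274 ± 8.68 CPM (edgeR adjusted p = 0.0121, log2 fold change 0.35, SE 0.07). HSPD1, a mitochondrial chaperonin, rose as well (0.27, SE 0.06), and CTPS1, CTP synthase, was the fourth. With a negative fold change, only TERT, the catalytic subunit of telomerase, had an unadjusted p under 0.05 (edgeR adjusted p = 0.125, log2 fold change -0.45, SE 0.16). With the block 22 rose and 1 fell (backgrounds 17.2% and 16.7%), and without KO replicate 3, 8 rose. Leaving out control replicate 1, control replicate 2 or KO replicate 2 left 2 genes, and without KO replicate 1 it was 1. The 41 members themselves are spread over 17 chromosomes, with 7 on chromosome 2 and 5 on chromosome 10.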

How the data were processed

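Poly(A) RNA libraries (TruSeq Stranded mRNA kit, per the labels' protocols) from 3 control and 3 KO samples were deposited as raw counts per gene. Per the submitters' processing notes, FastQC 0.11.9, STAR 2.7.9a, featureCounts, R 4.1.1 and hg38 were used; the strand and multi-mapping settings were not stated there. Of 61228 genes, filterByExpr kept 14704, over which library sizes were recomputed. Fits used edgeR 4.0.16 (quasi-likelihood, robust, TMM, group only, Benjamini-Hochberg over all genes tested) in R 4.3.3 with limma 3.58.1; DESeq2 1.42.0, other scalings, no filter, a replicate block and left-out libraries were alternatives. The script was tested on simulated data that held no replicate effect, so that test does not cover the replicate pattern seen here. CPM use TMM-scaled totals, and SE are those of the log2 fold change.

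Same-numbered libraries correlated at 0.546, 0.450 and 0.829 in their deviations from group means (10032 genes), and the numbers were taken to pair libraries. This comes from the data, as the labels name no shared batch. The data matched only replicate 3 to its number, since replicates 1 and 2 correlated slightly better crossed (0.592 and 0.584).

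The 41 members and all gene lists were chosen with earlier results of these data known, so their direction is not independent evidence. All members are named; from each other list, up to 3 genes per direction with the smallest adjusted p, or the nearest gene where none passed. Some genes and 1 list are not reported here. CTPS1, TERT, MAX and CAVIN1 were named after their values were seen. Positions are from GENCODE release 29 (GRCh38) and promoters from RefSeq (GRCh38.p14).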

Additional observations from a re-analysis of the deposited data

How the results depend on the processing

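Under all alternatives at least 37 of the 41 genes kept a positive fold change and none fell, while the number that rose ranged from 3 to 36. Signs turned, for genes that did not pass, for MYC (0.0362 without control replicate 3, 0.0472 without KO replicate 1, 0.0073 without KO replicate 2, down to -0.0999 without KO replicate 3), FBL (-0.0023 without control replicate 2, -0.0985 without KO replicate 3, up to 0.3112 without control replicate 3), GAR1 (-0.008 without KO replicate 3, up to 0.5054 without control replicate 3) and RRN3 (-0.0228 without control replicate 1, up to 0.0884 without control replicate 3); the cause was not tested. Over all genes 483 were higher and 944 lower. With the replicate block 2522 were higher and 2461 lower, and calls higher in KO made up 50.6% of all calls, against 23.5% to 44.6% with 1 library left out. The replicate block gave 36 of the 41 genes higher; polymerase I 9 higher and 2 lower, small-subunit factors 35 higher, large-subunit factors 39 and 3, the exosome 6, snoRNP assembly and hosts 10 and 1, ribosomal proteins 40 and 2, polymerase III 8, the MYC network 4 and 3 and MYC targets 22 and 1. Without replicate 3 of both groups, 1731 genes were higher and 2023 lower, with 31 of the 41 genes higher, polymerase I 6 and 1, small-subunit factors 27, large-subunit factors 31 and 1, the exosome 5, snoRNP assembly and hosts 4 and 1, ribosomal proteins 31 and 1, polymerase III 5 and MYC targets 18. With DESeq2, 1 polymerase I gene and 2 ribosomal protein genes were higher. With RLE factors or library totals only, 2 ribosomal protein genes were. With upper-quartile factors, 0 exosome genes were. Without the low-count filter, polymerase I had 3 higher, large-subunit factors 16 and snoRNP assembly and hosts 2. With 1 library left out at a time, the ranges were 136 to 777 higher and 436 to 964 lower over all genes, and 3 to 18 higher for the 41 genes. For the lists they were 0 to 3 (polymerase I), 1 to 12 (small-subunit factors), 0 to 16 (large-subunit factors), 0 to 1 (exosome), 0 to 5 (ribosomal proteins), 0 to 4 (polymerase III), 0 to 3 higher and 1 lower (MYC network) and 1 to 8 (MYC targets). The low count of NOP2, at most 29 a library, limits its test, and the reason for that count was not tested.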

Other observations

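RNA polymerase III transcribes the 5S ribosomal RNA and transfer RNAs outside the nucleolar programme described above. Of 21 genes of its machinery, 3 rose in KO (background 3.28% of genes) and none fell by edgeR or DESeq2. None with a negative fold change had an unadjusted p under 0.05, and the median of the 21 was 0.09 on the log2 scale. Among those that rose were GTF3C6 (0.35, SE 0.08), a subunit of the initiation factor TFIIIC, and POLR3K (0.38, SE 0.09), a subunit of the polymerase. With the replicate block 8 rose (background 17.2%). Without control replicate 1 or 2 or KO replicate 2 none did, and without control replicate 3 or KO replicate 1 it was 1.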
